A study of Mus musculus with 4 samples.

Results

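The comparison set primary mouse embryonic fibroblasts of the tri-CH1 genotype against wild-type fibroblasts, both kept at 0.1% oxygen, and it rests on 2 of the 4 arrays of the series. Its members were the arrays labelled as hypoxic for each genotype, 1 array each, and both came from the same array lot. The tri-CH1 embryos carried a deletion within the CH1 domain on both p300 alleles and on 1 of the CBP alleles, and the wild-type embryos carried none. Cells of both genotypes came from e14.5 embryos, were not yet confluent, and were given DMEM with 10% fetal bovine serum, antibiotics and glutamine that had stood overnight in hypoxia. They were then held for 6 h at 0.1% oxygen with 5% carbon dioxide at 37 °C and lysed at once for total RNA. The other 2 arrays held the same genotypes after 6 h at 21% oxygen. How many embryos or cultures went into an array, and the mouse strain, are not given in the sources used here, so a difference between the arrays cannot be told apart from a difference between embryos or cultures.

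CBP and p300 are related coactivators that many transcription factors recruit to promoters and enhancers, where they acetylate histones and bridge to the transcription machinery. The CH1 domain, also called TAZ1, is a zinc-binding module of both proteins that holds the transactivation domain of HIF-1α and of other factors. HIF is the transcription factor that is stabilised when oxygen is low and that raises genes of glucose uptake, glycolysis, angiogenesis and pH control. Embryonic fibroblasts are mesenchymal cells that secrete collagens and proteoglycans, pull on them through actin stress fibres and respond to serum through SRF, the serum response factor.

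Each array gave 1 signal per probe set on a linear scale. A gene was represented by its probe set of highest mean signal over the 4 arrays, signals under 200 were raised to 200, and a gene was counted where the brighter hypoxic array reached 500. Genes on the X and Y chromosomes were left out. Of 11956 genes, 4092 were counted. Higher and lower mean at least 2-fold by size in tri-CH1 relative to wild type, a difference of 1 on the log2 scale. With 1 array per genotype there is no replicate error and no test, and the number of arrays limits the precision. The only internal spread was that between probe sets of 1 gene, an SD of 0.30 on the log2 scale over 1302 genes. The scaled background was 245.9 on the wild-type and 393.5 on the tri-CH1 hypoxia array, and 6066 and 6226 of 22690 probe sets reached 500. The 3' to 5' signal ratio was 0.711 and 0.751 for the Gapdh control and 1.43 and 1.23 for the Actb control, in the same order.

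In hypoxia 155 genes were higher in tri-CH1, 3.79% of those counted, and 134 were lower, 3.27%, so that 7.06% passed 2-fold in either direction. The median log2 difference of all counted genes was 0.05. Of these genes, 24 were higher and 17 lower by 4-fold or more. For 33 of the higher and 18 of the lower genes the dimmer array was under 200, which places a gene at 500 past 2-fold by construction, and such folds are given as at least that size. At the limits of the rule, Tgfbr2 stood at 1154 in wild-type cells and 2309 in tri-CH1 cells and was counted as higher, while Mios, at 356 and 711, was not. On the other side Tfrc, at 2931 and 1466, was counted as lower, and Slc25a24, at 1104 and 553.5, was not. Ak3 just reached the minimum signal at 501 and E2f4 just missed it at 499.

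**Figure D1:**
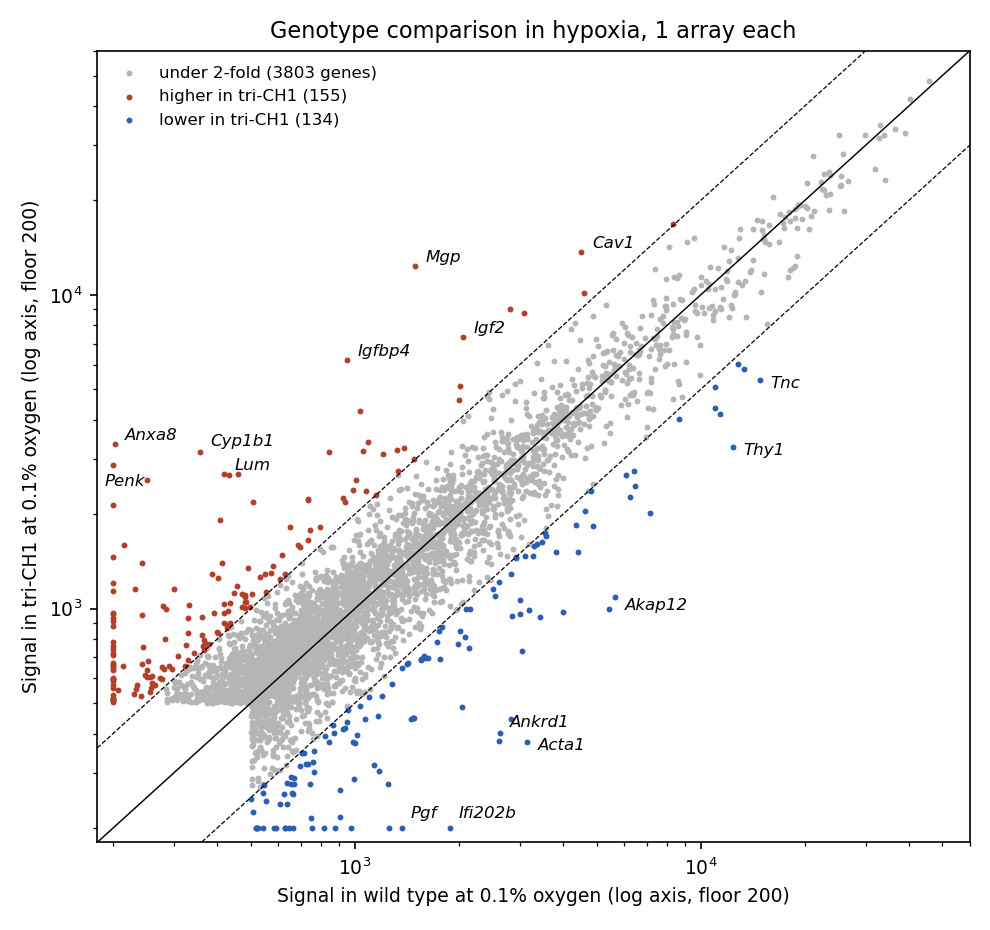
Signals of the 4092 counted genes on the wild-type (horizontal) and tri-CH1 (vertical) arrays at 0.1% oxygen, on log axes with a floor of 200, 1 point per gene; the solid line marks equal signals and the dashed lines 2-fold. The 155 higher genes lie above the upper dashed line, with Anxa8, Penk and Cyp1b1 farthest from it among those labelled. The 134 lower genes lie below the other, with Ifi202b, Acta1, Pgf and Ankrd1 farthest among those labelled.

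The labelled genotype and cell type were checked first. Crebbp, which encodes CBP, stood at 29.6 in wild-type cells and 87.7 in tri-CH1 cells, under 200 on all 4 arrays, and the deletion removes only part of the gene, so this probe set does not check the genotype. Probe sets of the p300 gene were not analysed here. Of 13 fibroblast markers, 12 reached 500, and the summed signal of all of them was 143424 in wild-type cells and 153779.6 in tri-CH1 cells. The sum hides members that went opposite ways. Lum, Dcn and Col1a1 were higher and Thy1 was lower, and the log2 differences ran from -1.92 to 2.68. The cadherin Cdh1 and the adhesion molecule Epcam, which define epithelium, stood at 2.3 and 36.3 and at 13.7 and 14.9. Endothelial Pecam1 was at 30.3 and 23.8, leukocyte Ptprc at 80.6 and 92.6, mesothelial Msln at 23.6 and 40.5, and the muscle regulators Myod1 and Myog at 100.4 and 144 and at 16.3 and 85.1. None of these defining markers reached 200 on either hypoxia array. Over whole lists, 0 of 10 epithelial markers were counted, with sums of 702 and 974, 1 of 10 endothelial markers, with 1732 and 1482, and 2 of 12 macrophage and blood markers, with 2978 and 2618. A separate list of simple epithelial keratins and junction genes was bright, with 5 of 20 counted and sums of 51313 and 41119. All 5 lay below 0, with log2 differences from -0.99 to -0.25, and none passed 2-fold. Of 6 mesothelial markers 2 were counted, with sums of 5061 and 3440.3; the part of any such cells in the differences was not tested. In RNA from a whole culture, fewer cells of a type and less RNA per cell cannot be told apart.

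The largest differences upward were spread over secreted, membrane and metabolic proteins. Anxa8, an annexin that binds membranes in the presence of calcium, stood at 202.5 in wild-type cells and 3347 in tri-CH1 cells and was 16.5-fold higher. Its second probe set gave 231.5 and 3196. Penk, the proenkephalin precursor of opioid peptides, stood at 97.5 and 2875 and was at least 14.4-fold higher. Aqp1, a water channel, stood at 197 and 2143, or at least 10.7-fold. Ptx3, a soluble pattern recognition molecule, stood at 250.2 and 2579, or 10.3-fold. The nuclear noncoding RNA Neat1, a scaffold of paraspeckles, stood at 143 and 1464, or at least 7.32-fold, and the carbonyl reductase Cbr2 at 88.3 and 1136, or at least 5.68-fold. Each of these was close to or under the floor of 200 in wild-type cells and far above it in tri-CH1 cells.

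Downward, the leading gene was Ifi202b, an interferon-inducible p200 family gene with near-identical relatives that can share probes, at 1885 in wild-type cells and 10.1 in tri-CH1 cells, at least 9.42-fold lower. Acta1, skeletal muscle α-actin, stood at 3151 and 376 and was 8.37-fold lower. Rpl39l, a copy of a ribosomal protein gene that its parent resembles closely, stood at 2619 and 378, or 6.92-fold. Pgf, the placental growth factor of the VEGF family, stood at 1368 and 39.3, or at least 6.84-fold. Ifi202b and Pgf lay far under the floor of 200 in tri-CH1 cells. Plac8 stood at 2820.5 and 444, 6.35-fold lower. Gng11, a G protein γ subunit, stood at 5435 and 997.5, 5.45-fold lower. Nnmt, which methylates nicotinamide, stood at 973.5 and 128, at least 4.87-fold lower, and Fbxo32, a muscle ubiquitin ligase subunit also called atrogin-1, stood at 904 and 216, 4.18-fold lower. The transglutaminase Tgm2 stood at 874 and 153, at least 4.37-fold lower, but its mean over all probe sets differed by only -0.45 on the log2 scale.

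Extracellular matrix genes held a large block of higher genes, led by small leucine-rich proteoglycans and elastic fibre proteins. Of 29 measured genes on the proteoglycan and elastic fibre list, 24 were counted, 11 were higher and 1 was lower, with a median log2 difference of 0.40 against 0.05 for all counted genes. Mgp, the matrix Gla protein that restrains calcification, stood at 1498 in wild-type cells and 12320.3 in tri-CH1 cells, 8.23-fold higher. Lum, lumican, stood at 419 and 2684, a log2 difference of 2.68, and Ogn, osteoglycin, at 432 and 2672, or 6.19-fold. Lum and Ogn belong with Fmod and Dcn to the small leucine-rich proteoglycans, which bind collagen fibrils and set their width. Fmod, fibromodulin, stood at 284 and 998, 3.51-fold higher, and 4 of its 5 other probe sets were higher by 2-fold too. Dcn, decorin, stood at 617 and 1488, 2.41-fold higher. Aspn, asporin, of the same family, did not follow, at 1809 and 1174, a log2 difference of -0.62; it was named after its value was seen.

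Among microfibril and elastic fibre genes, Fbn2, fibrillin-2, stood at 332 in wild-type cells and 1030.1 in tri-CH1 cells, 3.10-fold higher. Mfap5, a microfibril glycoprotein, stood at 1079.8 and 2377, 2.20-fold higher, and Emilin1 at 234 and 555, 2.37-fold higher. The latent TGF-β binding proteins tether the inactive growth factor to these fibres. Ltbp2 stood at 840.5 and 3158, 3.76-fold higher, and Ltbp3 at 731 and 2238, 3.06-fold higher, while Ltbp1 stayed under 2-fold at 957.5 and 1096.5. The basement membrane linker Nid2 stood at 140.4 and 597, at least 2.98-fold higher, and the laminin γ1 chain Lamc1 at 608 and 1244, 2.05-fold higher. The laminin β1 chain Lamb1 went the other way, at 1785 and 873, 2.04-fold lower, as it did on its 2 other probe sets. With a floor of 400, close to the background of the tri-CH1 array, Emilin1 and Nid2 were under 2-fold.

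Collagen genes leaned upward without passing 2-fold in most cases. Of 21 counted, 2 were higher and 1 was lower, and 16 were above 0, with a median of 0.36. Col1a1, the α1 chain of type I collagen, stood at 8308 in wild-type cells and 16822 in tri-CH1 cells, 2.02-fold higher, and Col11a1 at 581 and 1364, 2.35-fold higher. A further Col1a1 probe set was under 2-fold, with a log2 difference of 0.65. The brightest collagen genes under 2-fold were Col1a2, at 25093 and 32246, Col5a2, at 14509.7 and 17298, and Col3a1, at 9564 and 15169. Bmp1, the proteinase that trims procollagen, stood at 844 and 376, 2.24-fold lower.

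Matricellular proteins, which signal from the matrix rather than build it, split into opposite directions. Of 15 counted, 2 were higher and 2 lower. Smoc2 stood at 458.5 in wild-type cells and 2690 in tri-CH1 cells, 5.87-fold higher, and Ccn5, also called Wisp2, at 407 and 1918, 4.71-fold higher. The lower genes encode adhesive glycoproteins of remodelled matrix. Thbs2, thrombospondin-2, stood at 7133 and 2012, 3.54-fold lower, and Tnc, tenascin C, at 14814 and 5371, 2.76-fold lower. The brightest members, Sparc at 22371 and 21721.5, Thbs1 at 23438 and 18669 and Fn1 at 16153 and 20541, stayed under 2-fold. Secreted glycoproteins outside the list were also among the 20 largest differences upward. Svep1 stood at 231 and 1155, 5.00-fold higher, and Prg4, the joint lubricant lubricin, at 135 and 962, at least 4.81-fold higher.

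Of 15 counted matrix proteases and inhibitors, 0 were higher and 2 lower, where 3.27% of all counted genes were lower. Plat, tissue plasminogen activator, stood at 1986 in wild-type cells and 774 in tri-CH1 cells, 2.57-fold lower, and the stromelysin Mmp10 at 517 and 172, at least 2.59-fold lower, a call lost with a floor of 400. Timp2, the brightest member, is a metalloproteinase inhibitor whose probe sets disagreed in size. The one used stood at 7387 and 12136, a log2 difference of 0.72, while 4 dimmer ones gave 1.24, 1.32, 1.87 and 1.58, all past 2-fold upward.

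Enzymes that assemble the sugar chains of proteoglycans were described from a list written after the values were seen. Of 11 counted, 1 was higher and 4 were lower. Chst12, a chondroitin sulfotransferase, stood at 815 in wild-type cells and 151 in tri-CH1 cells, at least 4.07-fold lower, and Chst2, a sulfotransferase for N-acetylglucosamine, at 628 and 156, at least 3.14-fold lower. Csgalnact1, which starts chondroitin chains, stood at 554 and 245, 2.26-fold lower, and the heparan sulfotransferase Hs2st1 at 2150.5 and 996, 2.16-fold lower. Dimmer Hs2st1 probe sets gave log2 differences of -0.62 and 0.15. The chondroitin polymerising factor Chpf was the higher one, at 277 and 595, 2.15-fold. The brightest, the heparan polymerase Ext1, stayed under 2-fold at 2013 and 1564. With a floor of 400, Chst2, Csgalnact1 and Chpf were under 2-fold.

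Imprinted growth genes and IGF binding proteins formed a second block, with 6 higher and 2 lower of 17 counted and a median of 0.39. Igf2, the fetal growth factor expressed from the paternal allele, stood at 2054 in wild-type cells and 7345 in tri-CH1 cells, 3.58-fold higher. Mest stood at 299 and 1155, 3.86-fold higher, Plagl1, an imprinted zinc finger factor also called Zac1, at 1058 and 3190.5, 3.02-fold higher, and Dlk1 at 548.5 and 1292.5, 2.36-fold higher. Mest, Plagl1 and Dlk1 are, like Igf2, expressed from the paternal allele. The brightest members of the list were not past 2-fold: Gnas stood at 8337 and 9363, Grb10 at 4718 and 6197, and the noncoding Meg3, which is expressed from the maternal allele, at 2896 and 2436. Decorin, described above, was the sixth higher member, counted with the matrix.

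The IGF binding proteins, which hold IGFs outside the cell and limit or prolong their action, were split. Igfbp4 stood at 949 in wild-type cells and 6191 in tri-CH1 cells, 6.53-fold higher, and its 5 other probe sets gave log2 differences from 1.60 to 3.14. Igfbp5 stood at 2047 and 486, 4.21-fold lower, and Igfbp7 at 6441 and 2468, 2.61-fold lower. The remaining 2 of the 5 counted, Igfbp2 and Igfbp6, had log2 differences of 0.81 and 0.77 and were named after their values were seen. Of 14 counted growth factor receptors, 1 was higher, a share near the 7.06% of all counted genes past 2-fold in either direction. It was the collagen-binding kinase Ddr2, at 428 and 868, 2.03-fold. The 7 counted growth factors and cytokines held none past 2-fold, the brightest being Hbegf, at 5471 and 3643.

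**Figure D2:**
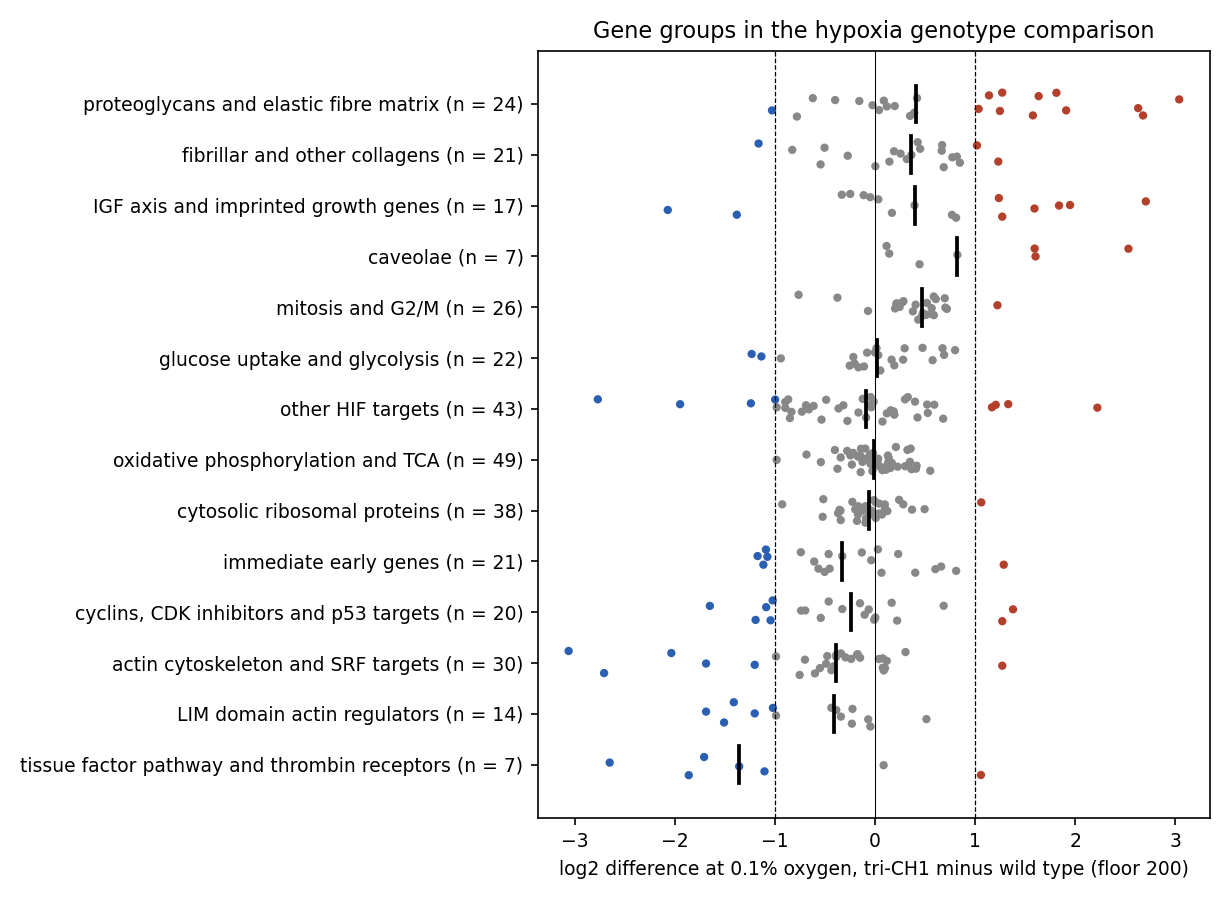
Log2 difference at 0.1% oxygen (tri-CH1 minus wild type, floor of 200) of each counted gene in selected gene lists, 1 point per gene, with black bars at the list medians and dashed lines at 2-fold; red points are higher and blue points lower in tri-CH1. Proteoglycan and elastic fibre genes reach 3.04 with a median of 0.40, actin and SRF target genes reach -3.07 with a median of -0.39, and no counted gene of the oxidative phosphorylation and TCA list, which does not hold Atp5g1 or Ndufs5, passes a dashed line.

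The lists differ in how far their members spread. Over all counted genes 3.79% were higher and 3.27% lower. Where a list was written after the values were seen, its counts are a description. The sign of each list median given in the text held when both arrays were normalized by quantiles, by cyclic loess or to the same median, except for glycolysis.

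Caveolae, flask-shaped membrane pits built from caveolins and cavins, were described from a list written after the values were seen. All 7 counted members lay above 0, and 3 were higher. Cav1 stood at 4521 in wild-type cells and 13654 in tri-CH1 cells, 3.02-fold higher, and its partner Cav2 at 242 and 1399.8, 5.79-fold higher. Cavin2 stood at 733 and 2229, 3.04-fold higher. Cavin1, which caveolae need to form, was the brightest member under 2-fold, at 3009 and 3256. A dimmer Cav2 probe set stood at 234 and 237, near the floor on both arrays.

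Other membrane proteins moved singly rather than as families. Among 13 counted annexin and S100 genes, Anxa8 was the 1 member past 2-fold, and the brightest, Anxa2, stood at 20309 and 22688. Among 9 counted tetraspanins, organisers of membrane microdomains, Cd9 stood at 1089 in wild-type cells and 3401 in tri-CH1 cells, 3.12-fold higher. Cd82 stood at 402 and 1256, 3.13-fold higher, but its second probe set went the opposite way, from 587 to 280.1, so that the probe sets disagree in sign. Cd151 stood at 924.5 and 414, 2.23-fold lower; of its other probe sets that reached 500, 3 lay below 0 and 1 above it, at 0.13. Among 15 counted integrin and adhesion genes none was higher and 3 were lower. Thy1, a glycolipid-anchored protein that is a common fibroblast marker, stood at 12389 and 3274, 3.78-fold lower. Mcam stood at 754.5 and 146, at least 3.77-fold lower, which a floor of 400 brought under 2-fold, and Ncam1 at 2918 and 1448, 2.02-fold lower. The integrin chains were under 2-fold, with the brightest, Itgb1, at 12259 and 9282.5. Receptors and linkers of the matrix also appeared among genes with little difference at 21% oxygen on the probe set used. In hypoxia Dag1, dystroglycan, stood at 795 and 1826, 2.30-fold higher, and Cd248, endosialin, at 694.5 and 1567, 2.26-fold higher. The receptor phosphatase Ptprs stood at 734 and 1659, 2.26-fold higher.

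TGF-β and BMP genes differed in both directions, with 4 higher and 2 lower of 17 counted. Among the ligands, Bmp4 stood at 141 in wild-type cells and 967 in tri-CH1 cells, at least 4.83-fold higher, and Inhba, the activin A subunit, at 6254 and 2269, 2.76-fold lower. Fst, follistatin, which binds and blocks activin, stood at 533 and 1259, 2.36-fold higher. Of the receptors, Tgfbr2 was higher at the limit of the rule, as given above. The Id genes, which BMP signals induce and which block bHLH transcription factors, disagreed. Id1 stood at 744 and 1786, 2.40-fold higher, Id4 at 1245 and 277, 4.49-fold lower, and Id3 at 3775 and 2465, a log2 difference of -0.61. The other Id4 probe sets were under 2-fold, with log2 differences of -0.81 and -0.86.

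Wnt and retinoid genes held 4 higher and 2 lower of 13 counted. Sfrp2, a secreted Wnt-binding protein, stood at 78.7 in wild-type cells and 912 in tri-CH1 cells, at least 4.56-fold higher, and Wnt5a, a ligand of the β-catenin-independent branch, at 1477 and 450.1, 3.28-fold lower. Rspo2, which amplifies Wnt signals at the receptor, was outside the list and stood at 111 and 1209, at least 6.04-fold higher. The cellular retinoic acid binding proteins went opposite ways. Crabp2, which delivers retinoic acid to its nuclear receptors, stood at 215.5 and 1601.5, 7.43-fold higher, and Crabp1 at 3828 and 1519.7, 2.52-fold lower. Rarg, the retinoic acid receptor γ, stood at 418 and 1034, 2.47-fold higher. Ctnnb1, β-catenin, was the brightest member and stood at 6537 and 6424.5.

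Cyp1b1, a cytochrome P450 that oxidises retinol, steroids and aromatic hydrocarbons, stood at 357 in wild-type cells and 3148 in tri-CH1 cells, 8.82-fold higher, and a dimmer probe set gave 136 and 962. It is a textbook target of the aryl hydrocarbon receptor, whose gene Ahr stood at 12 and 745, at least 3.73-fold higher, a call lost with a floor of 400. A second Ahr probe set stood at 186 and 323, under 2-fold. The core of that receptor's binding site, GCGTG, was searched on both strands in RefSeq promoter windows of 300 bases, from 250 before to 50 after each gene start (GRCm38.p6). It is common: 32.4% of all 32851 promoters and 54.3% of those of counted genes hold it. The Cyp1b1 window, chr17:79715012-79715311 on the minus strand, is shown 5′ to 3′ because it holds 1 match, 76 bases before the start, which reads CACGC on the printed strand and is in capitals.
Cyp1b1: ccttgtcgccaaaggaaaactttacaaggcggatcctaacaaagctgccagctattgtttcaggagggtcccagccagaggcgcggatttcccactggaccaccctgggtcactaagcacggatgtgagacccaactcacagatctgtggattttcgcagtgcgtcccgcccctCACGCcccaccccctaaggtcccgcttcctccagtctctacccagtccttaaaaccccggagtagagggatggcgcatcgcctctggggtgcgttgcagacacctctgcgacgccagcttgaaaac

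Muscle actins and a few other targets of SRF were lower. Of 35 measured genes on the actin cytoskeleton and SRF target list, 30 were counted, 1 was higher and 5 were lower; 22 of the 30 lay below 0, with a median of -0.39. Acta1, described above, was 8.37-fold lower. Actg2, enteric smooth muscle γ-actin, stood at 3998 in wild-type cells and 973 in tri-CH1 cells, 4.11-fold lower. Ankrd1, a nuclear and sarcomeric ankyrin repeat protein induced by YAP and SRF, stood at 2627 and 401, 6.55-fold lower. The differences did not extend to the abundant actins: Actg1 stood at 33025 and 34811, Actb at 29803 and 32298, and Acta2, smooth muscle α-actin, at 34094 and 23246, a log2 difference of -0.55. The actin genes are close relatives, so probe sets in shared sequence could mix them. Cyclin D1, Ccnd1, was the higher member, at 989 and 2387, 2.41-fold, and both of its other probe sets were higher.

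The other muscle genes were checked beside these. Of 16 skeletal muscle markers, Acta1 alone reached 500, and 13 lay under 200 on both hypoxia arrays; the sum of the list was 4462 in wild-type cells and 1596 in tri-CH1 cells, with Acta1 included. Of 9 smooth muscle and pericyte markers, 4 were counted, with none past 2-fold and sums of 66069 and 46310.5. Myh11, the smooth muscle myosin that defines the lineage, stood at 141 and 98.0, under 200 on both. The part of muscle-type cells in the lower muscle actins was not tested.

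SRF itself was represented by probe sets that disagree. The brighter one stood at 873 in wild-type cells and 402 in tri-CH1 cells, 2.17-fold lower, and the other at 373 and 433, a log2 difference of 0.21. SRF binds the CArG box, whose core is a run of A and T between paired C and paired G. That motif, which can overlap a TATA-like run, was searched on both strands in the promoter windows of 112 of the 155 higher and 96 of the 134 lower genes, those with an entry. It is rare, in 1.63% of all promoters and in 69 of 4329 of those of counted genes, and was found in 2.55% of the promoters of higher genes and in 5.19%, or 7 of 135, of those of lower genes. Of the lower genes of the actin list, Acta1, Ankrd1, Csrp1 and Tes had entries, and a CArG box was found in that of Acta1 only. The windows of Acta1 and Srf are shown 5′ to 3′ with CArG boxes in capitals, since they show the element and its spacing. The Acta1 window is chr8:123894726-123895025 on the minus strand with the box 73 bases before the start, and the Srf window is chr17:46556113-46556412 on the minus strand with boxes 82 and 62 bases before the start. A match is a run of letters and not a measured binding site.
Acta1: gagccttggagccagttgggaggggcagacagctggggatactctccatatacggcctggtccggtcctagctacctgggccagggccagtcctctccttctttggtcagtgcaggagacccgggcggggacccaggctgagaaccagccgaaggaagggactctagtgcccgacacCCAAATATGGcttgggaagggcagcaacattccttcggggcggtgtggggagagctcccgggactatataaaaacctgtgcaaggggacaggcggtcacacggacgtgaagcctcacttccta
Srf: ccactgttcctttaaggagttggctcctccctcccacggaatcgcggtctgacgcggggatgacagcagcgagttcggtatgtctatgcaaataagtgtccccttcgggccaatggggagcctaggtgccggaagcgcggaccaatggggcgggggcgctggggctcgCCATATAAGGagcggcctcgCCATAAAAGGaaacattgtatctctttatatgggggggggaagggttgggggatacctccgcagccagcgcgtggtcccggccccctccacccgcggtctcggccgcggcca

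Some proteins that carry or anchor actin filaments were lower as well. The LIM domain proteins, zinc finger adaptors at focal adhesions and along stress fibres, were described from a list written after the values were seen, with 0 higher and 5 lower of 14 counted. Tes, testin, stood at 3200.2 in wild-type cells and 991 in tri-CH1 cells, 3.23-fold lower, and Fhl2 at 2138 and 750, 2.85-fold lower. Lasp1 stood at 4896 and 1838, 2.66-fold lower, with 8 other probe sets from -1.35 to -0.21. Csrp1 stood at 13350.5 and 5793, 2.30-fold lower, and Pdlim1 at 4833 and 2379, 2.03-fold lower. The brightest of the rest, Lpp and Tgfb1i1, stood at 4139 and 3943 and at 2957 and 2860.4.

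A further list written after the values were seen took in Ena/VASP, formin and cortical actin proteins, with 0 higher and 7 lower of 16 counted and a median of -0.46. Akap12, a scaffold that anchors protein kinase A under the membrane, stood at 5637 in wild-type cells and 1086.5 in tri-CH1 cells, 5.19-fold lower. Enah, which speeds filament growth at the leading edge, stood at 3009.9 and 959, 3.14-fold lower, and Cdc42ep3, an effector of Cdc42, at 2847 and 951, 2.99-fold lower. Cap1, which recycles actin monomers, stood at 6434 and 2751, 2.34-fold lower. Dpysl3 stood at 4642 and 2044, 2.27-fold lower, and Marcksl1 at 1554 and 688, 2.26-fold lower. Other Marcksl1 probe sets gave log2 differences of -0.66, -0.25 and -0.24. Mical2, a monooxygenase of the family that acts on actin, stood at 1374 and 646, 2.13-fold lower. Marcks, a relative of Marcksl1 named after its value was seen, had a log2 difference of 0.82, from 1500.3 to 2642. The brightest members, profilin Pfn1 and cofilin Cfl1, stood at 11418 and 10567 and at 10204 and 8769, under 2-fold.

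**Figure D3:**
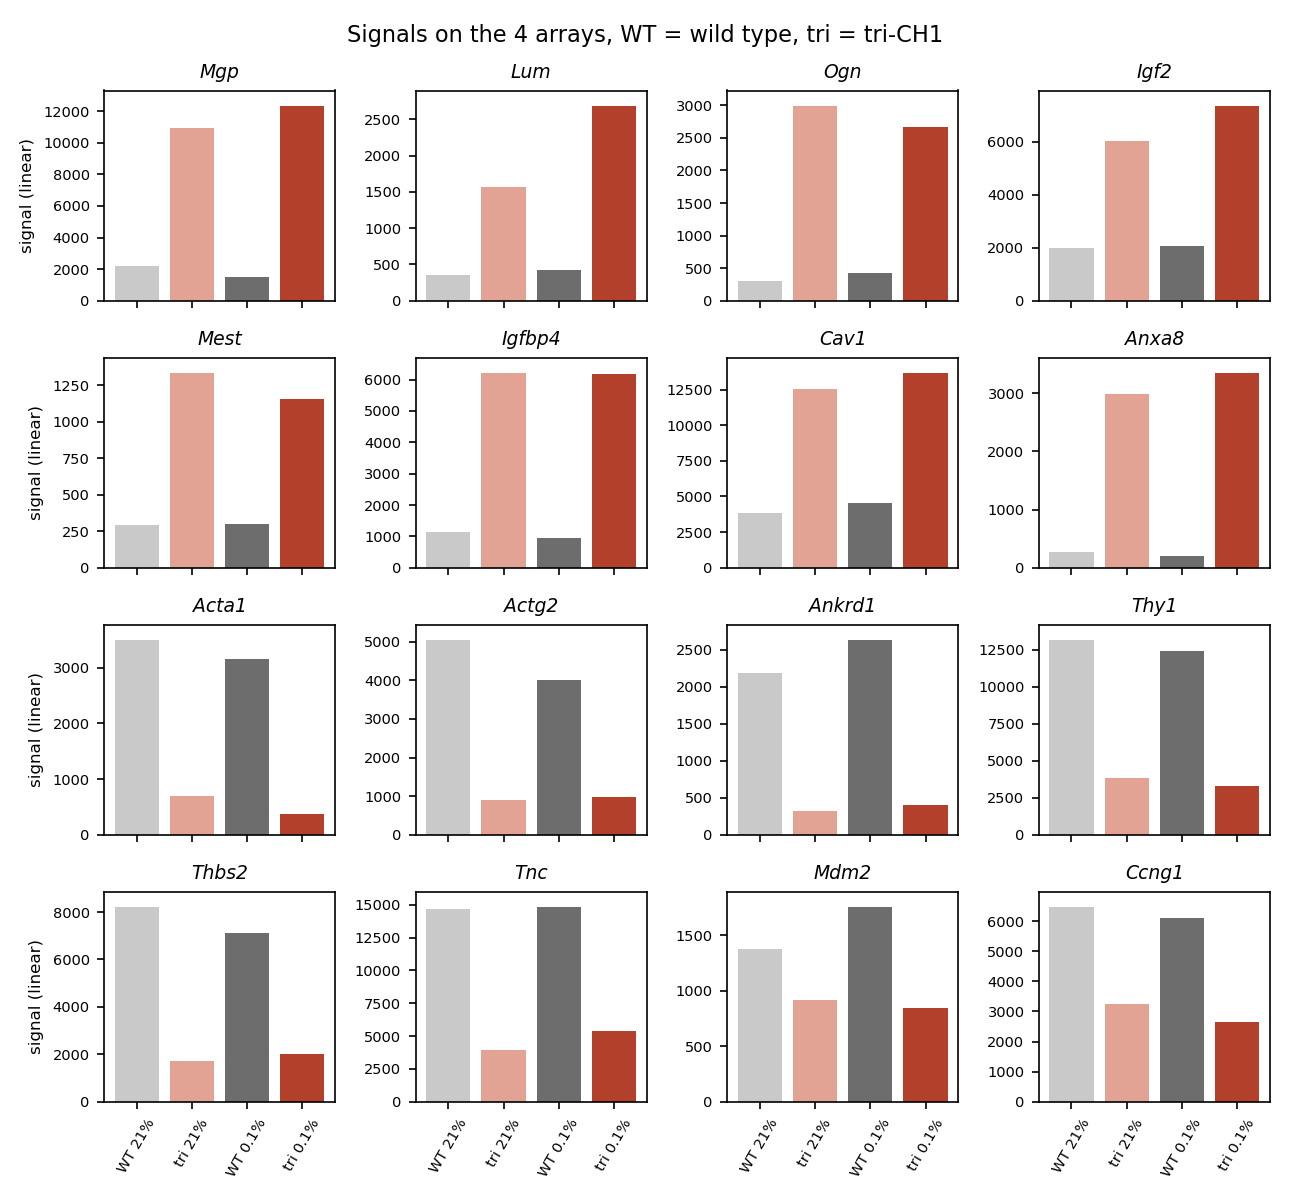
Signals (linear, axes from 0) of selected genes on the 4 arrays, 1 bar per array, with wild type in grey and tri-CH1 in red, pale at 21% and dark at 0.1% oxygen. The genes from Mgp to Anxa8 are higher in tri-CH1 in hypoxia, as Mgp at 12320.3 against 1498, and those from Acta1 to Ccng1 lower, as Acta1 at 376 against 3151; at 21% oxygen each lies in the same direction.

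Several genes of the tissue factor pathway, which starts blood clotting and signals through thrombin receptors, were lower as well. The list was written after the values were seen, so its counts are a description. Of 7 counted genes 5 were lower and 1 was higher, beside 3.27% lower over all counted genes. Plat, given above with the matrix proteases, is among the 5. It and the urokinase receptor Plaur, also on the list, belong to plasminogen activation rather than to that pathway. F3, tissue factor, stood at 3426 in wild-type cells and 941 in tri-CH1 cells, 3.64-fold lower. The pathway inhibitor Tfpi stood at 1471 and 449.5, 3.27-fold lower, and its relative Tfpi2 at 1259.7 and 156, at least 6.30-fold lower. The initiator of the pathway, its inhibitor Tfpi and Tfpi2 thus had the same direction. The thrombin receptor F2r stood at 10988 and 5101, 2.15-fold lower. Thbd, thrombomodulin, which turns thrombin towards anticoagulant substrates, stood at 482 and 1003, 2.08-fold higher, and the urokinase receptor Plaur at 2026 and 2148.

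Known HIF targets, the genes that hypoxia and the CH1 partner HIF-1α are best known to raise, differed in both directions between the genotypes at 0.1% oxygen. Of 22 counted genes of glucose uptake and glycolysis, 0 were higher and 2 lower, with a median of 0.02 that turned to -0.06 when both arrays were scaled to the same median, and of 43 other targets 4 were higher and 4 lower, with a median of -0.09. Over all counted genes 7.06% passed 2-fold in either direction. Slc2a3, a neuronal and hypoxic glucose transporter, stood at 4349 in wild-type cells and 1847.5 in tri-CH1 cells, 2.35-fold lower; 3 dimmer probe sets gave log2 differences of -0.99, -0.18 and -0.86. Pfkfb3, which makes the activator of phosphofructokinase, stood at 1729.6 and 786, 2.20-fold lower. Its mean over all probe sets was under 2-fold, as was that of Slc2a3. The brightest glycolysis genes were close: Aldoa stood at 26657 and 23122, Ldha at 23627.5 and 24140.4, Tpi1 at 14213 and 16228, and Pkm at 15738 and 14564.5. Slc2a1, the main glucose transporter of fibroblasts, stood just short of 2-fold at 15552 and 8086, a log2 difference of -0.94.

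Among the other targets Pgf was lowest relative to wild type, as given above. Angptl4, a secreted inhibitor of lipoprotein lipase, stood at 1173 and 303.5, 3.87-fold lower, while its second probe set was under 200 on both arrays. Insig2, which retains the sterol sensor SCAP in the endoplasmic reticulum, stood at 2009.8 and 849, 2.37-fold lower, and the transferrin receptor Tfrc was lower at the limit of the rule, with a second probe set at 1199.5 and 1086. The higher targets were enzymes of pH control and regulators. Car9 and Car12, membrane carbonic anhydrases, stood at 197 and 933, at least 4.66-fold higher, and at 259 and 581, 2.25-fold higher. Ndrg2 stood at 447 and 1124, 2.51-fold higher, and Rcor2, a subunit of a corepressor, at 419 and 967, 2.31-fold higher. With a floor of 400 Car12 was under 2-fold. The brightest targets, Lox at 21090.3 and 27793, Mif at 15027 and 17161, Fam162a at 12262 and 13944, Ero1a at 13502.5 and 8527 and Bnip3 at 10529.6 and 10422, stayed under 2-fold. Hif1a stood at 3023 and 3179. Of the 9 counted partners and coactivators of CH1, Ets1, Srf and Mdm2 were lower and none was higher, beside 3.27% lower over all counted genes. The Srf probe sets disagree in sign, as given above. Ets1, a transcription factor, stood at 1556 and 693.5, 2.24-fold lower, and its other probe sets gave log2 differences of -1.34, -0.91 and -0.33. Cited2, a competitor of HIF-1α for CH1, stood at 1929 and 2004.

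**Figure D4:**
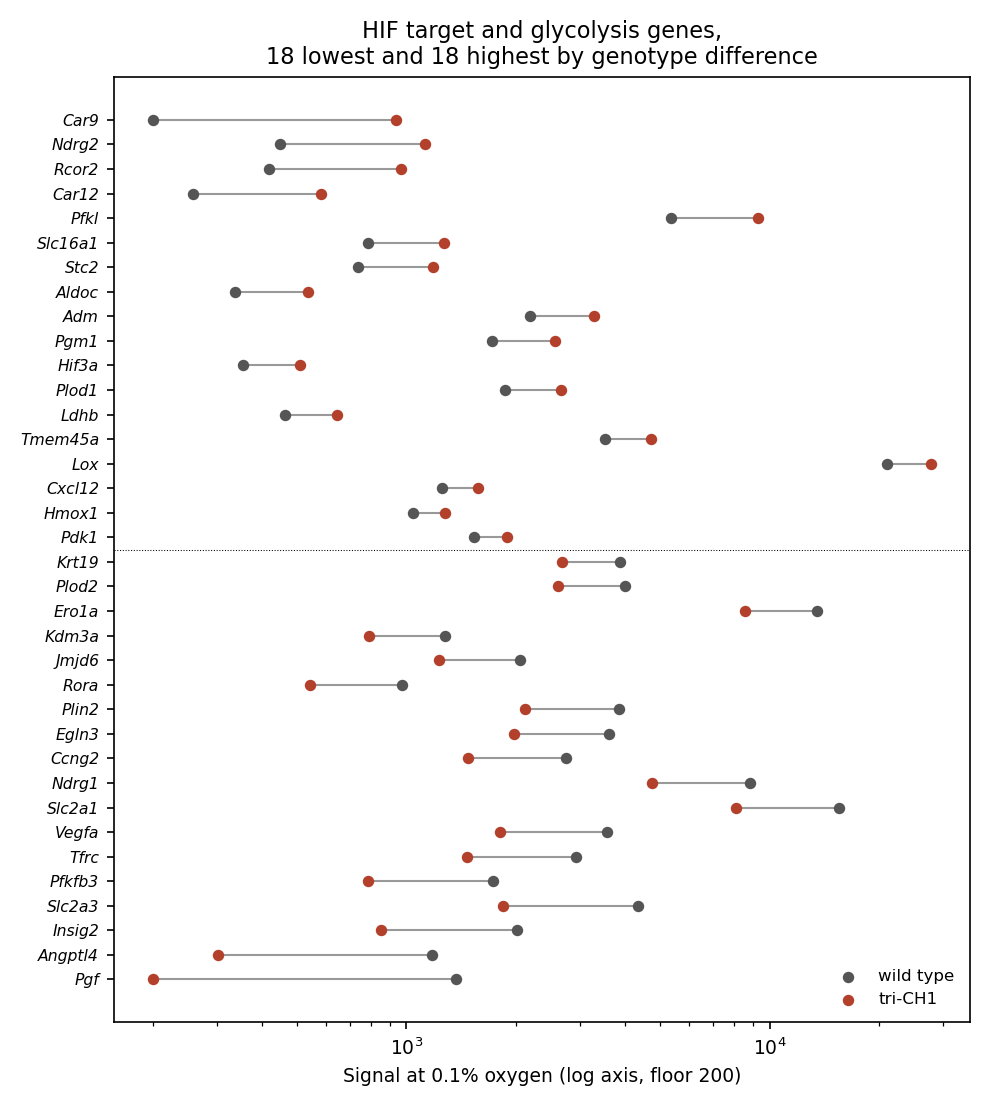
Signals at 0.1% oxygen (log axis, floor of 200) of the glycolysis and other HIF target genes with the lowest and the highest genotype differences, wild type in grey and tri-CH1 in red, joined by a line for each gene. Pgf, Angptl4, Insig2 and Slc2a3 are farthest to the wild-type side and Car9, Ndrg2, Rcor2 and Car12 to the tri-CH1 side, while Lox, at 21090.3 and 27793, is close on both.

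HIF binds ACGTG, 1 form of the core of the hypoxia response element. Other forms were not counted for HIF. ACGTG was searched on both strands in the same windows, where it can overlap an E-box. It was in 19.6% of all promoters and 28.7% of those of counted genes, against 24.2% for higher and 27.4% for lower genes. The Pfkfb3 and Car9 windows are shown, 5′ to 3′ with the match in capitals, because these targets differed in opposite directions and the window of each shown holds 1 match. Pfkfb3 has a further window with 2, at another start. The first Pfkfb3 window is chr2:11553880-11554179 on the minus strand, with the match 60 bases before the start, and that of Car9 is chr4:43506776-43507075 on the plus strand, with the match 18 bases before the start and reading CACGT on the printed strand.
Pfkfb3: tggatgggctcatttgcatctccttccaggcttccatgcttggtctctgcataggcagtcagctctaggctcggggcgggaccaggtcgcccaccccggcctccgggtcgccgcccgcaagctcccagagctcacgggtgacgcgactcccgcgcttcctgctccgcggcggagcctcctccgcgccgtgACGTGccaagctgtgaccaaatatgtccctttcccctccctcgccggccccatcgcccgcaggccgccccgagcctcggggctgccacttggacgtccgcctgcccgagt
Car9: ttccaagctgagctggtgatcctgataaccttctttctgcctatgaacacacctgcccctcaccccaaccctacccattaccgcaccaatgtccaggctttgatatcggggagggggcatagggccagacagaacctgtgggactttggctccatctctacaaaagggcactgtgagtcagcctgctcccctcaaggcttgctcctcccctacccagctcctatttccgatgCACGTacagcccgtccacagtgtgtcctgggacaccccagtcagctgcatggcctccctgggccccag

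Cell cycle genes were read beside all counted genes, of which 3.79% were higher and 3.27% lower. The counts past 2-fold for mitosis and for replication, 1 gene each, lay near those shares. Of 26 counted genes of mitosis and G2/M, 23 lay above 0, with a median of 0.47, yet only Bub1b passed 2-fold, at 230 in wild-type cells and 537 in tri-CH1 cells, 2.33-fold higher, a call lost with a floor of 400. The brightest, Bub3 and the kinase Cdk1, stood at 2261 and 2733 and at 1435 and 1746. Of 17 counted replication genes the helicase subunit Mcm6 was higher, at 499 and 1013, 2.03-fold, and the brightest, Pcna, stood at 3851 and 4914. Among cyclins, CDK inhibitors and p53 targets 2 were higher and 5 lower of 20. The D-type cyclins, which drive G1, were opposed: Ccnd1 was higher, as given above, and Ccnd2 stood at 12865 and 6044, 2.13-fold lower, with 4 of its 6 other probe sets lower as well. Ccnd3, named after its value was seen, stood at 1513 and 1515. The CDK inhibitor Cdkn2c stood at 361 and 938, 2.60-fold higher.

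The lower members of that list other than Ccnd2 are known p53 targets. Mdm2, the ubiquitin ligase that degrades p53, stood at 1754 in wild-type cells and 849.5 in tri-CH1 cells, 2.07-fold lower, and Ccng1 at 6099.6 and 2663, 2.29-fold lower. Plk2 stood at 3556 and 1748, 2.04-fold lower, and Pmaip1, the BH3-only death protein NOXA, at 629 and 59.6, at least 3.15-fold lower, a call lost with a floor of 400. The best-known target, the CDK inhibitor Cdkn1a, stood at 7122 and 4884, a log2 difference of -0.54, and Phlda3 at 2761 and 2741.

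Immediate early genes, which serum and stress switch on within minutes, held 1 higher and 4 lower of 21 counted, with a median of -0.33. The lower members were Srf, whose probe sets disagree in sign as given above, Maff, Dusp1 and Dusp6. Egr1, a zinc finger factor, stood at 926 in wild-type cells and 2257.5 in tri-CH1 cells, 2.44-fold higher. Maff, a small Maf factor, stood at 1411.5 and 669, 2.11-fold lower. The dual-specificity phosphatases, which switch off MAP kinases, had 3 lower of 8 counted, with Dusp16 not on the immediate early list. This symbol was taken up because 3 of its genes passed 2-fold, so the count is a description. Over all counted genes 3.27% were lower. Dusp1 stood at 3486 and 1635, 2.13-fold lower, Dusp6, specific for ERK, at 1195 and 529, 2.26-fold lower, and Dusp16 at 508 and 225, 2.26-fold lower, which a floor of 400 undid. The brightest immediate early genes, Ier3 and Jun, stood at 9047 and 6106 and at 2163 and 2537. Of the patterning factors, 10 of 75 were counted and Prrx2 was higher, at 419 and 902, 2.15-fold.

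Inflammatory genes showed no common direction. Of 9 counted, 3 were higher and 2 lower. Ptx3 led the higher genes, followed by the chemokine Cxcl14, at 431 in wild-type cells and 985 in tri-CH1 cells, 2.28-fold, and Cx3cl1, fractalkine, at 257 and 559.8, 2.18-fold. Vcam1, a leukocyte adhesion molecule, stood at 723.5 and 320.3, 2.26-fold lower, and both other probe sets were lower. With a floor of 400 Cx3cl1 and Vcam1 were under 2-fold. Ptgs2, the inducible cyclooxygenase COX-2, stood at 8655 and 4017, 2.15-fold lower. Along the same pathway, from a list written after the values were seen, the prostaglandin E synthase Ptges stood at 947 and 436, 2.17-fold lower, and the prostaglandin transporter Slco2a1 at 471 and 1112, 2.36-fold higher. Apart from Ifi202b, the counted interferon-inducible genes Ifitm2, Ifitm3 and Irf1 were under 2-fold, with Ifitm3 at 6009 and 7043. None of 4 counted MHC class I genes passed 2-fold; H2-K1, which has near-identical relatives, stood at 2905 and 5185.

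Metabolic and protein-making genes were mostly level. None of 49 oxidative phosphorylation and TCA cycle genes, 31 proteasome genes, 22 ribosome assembly genes or 21 cholesterol and fatty acid synthesis genes passed 2-fold. Over all counted genes 7.06% passed 2-fold in either direction, so a short list with none past it says little. Atp5g1 and Ndufs5, subunits of the respiratory chain complexes that were outside those lists, stood at 1482 and 3004, 2.03-fold higher, and at 504 and 1114, 2.21-fold higher. Of 38 cytosolic ribosomal protein genes Rps27 was higher, at 402 in wild-type cells and 838 in tri-CH1 cells, 2.09-fold. Of 28 genes of the integrated stress response and the endoplasmic reticulum, the leucine transporter Slc7a5 was higher, at 683.5 and 1597, 2.34-fold. Of 23 heat shock and chaperonin genes, the small heat shock protein Cryab was lower, at 3045.5 and 736, 4.14-fold; 1 other probe set was lower and 1 lay under 200.

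In xenobiotic and lipid handling, Gsto1, an omega-class glutathione transferase, stood at 11402 in wild-type cells and 4162 in tri-CH1 cells, 2.74-fold lower, which with Tfrc made 2 lower of 22 counted on the glutathione and iron list. Its brightest members, the metallothioneins Mt1 and Mt2, stood at 9124 and 14704 and at 8109.5 and 14195. The microsomal epoxide hydrolase Ephx1 stood at 934 and 2190.1, 2.34-fold higher. Fabp5, a fatty acid binding protein, stood at 10997 and 4370.5, 2.52-fold lower. Solute carriers, counted by their shared symbol, had 6 higher and 2 lower of 67. Beside Slc7a5 and Slc2a3 these were the fatty acid transporter Slc27a3, at 147 and 782, at least 3.91-fold higher, the nucleoside transporter Slc29a1, at 412 and 1399.5, 3.40-fold higher, Slc44a1, Slc25a22 and Slc12a2, with log2 differences of 1.51, 1.28 and 1.10, and the zinc transporter Slc39a6, at 2827.5 and 1289.8, 2.19-fold lower. Zinc finger genes sharing the Zfp symbol had 2 higher and 1 lower of 21, with log2 differences of 1.55 for Zfp521 and 1.23 for Zfp36l2, and signals of 956 and 477 for Zfp532. Both symbols were taken up because 3 or more of their genes passed 2-fold, so these counts are descriptions. Over all counted genes 7.06% passed 2-fold in either direction. With a floor of 400, Slc27a3, Slc25a22 and Zfp521 were under 2-fold. A second Slc39a6 probe set gave a log2 difference of -0.27.

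The same genes were then read on the arrays at 21% oxygen, which share no array with the hypoxia comparison; there 131 genes were higher, 3.13% of 4185 counted, and 146 were lower, 3.49%, or 6.62% in either direction. The wild-type array at 21% oxygen is of another lot than the other 3 arrays. Of the 155 genes higher in hypoxia, 124 were counted at 21% oxygen as well, 68 of them (54.8%) were higher there by 2-fold and 117 had the same sign. Of the 134 lower genes, 114 were counted, 77 (67.5%) were lower there by 2-fold and 111 had the same sign. None was past 2-fold the opposite way. Anxa8 stood at 273 in wild-type cells and 2981 in tri-CH1 cells at 21% oxygen, Mgp at 2169 and 10911, Igfbp4 at 1129 and 6206, and Cav1 at 3859 and 12568. Acta1 stood there at 3494 and 697.5, Ankrd1 at 2177 and 319.5, Thbs2 at 8206 and 1711, and Thy1 at 13148 and 3837. Across the 3789 genes counted at both oxygen levels, Pearson's r of the genotype differences was 0.743 and Spearman's rho 0.607; genes are not independent replicates, and the cultures of a genotype may share embryos.

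**Figure D5:**
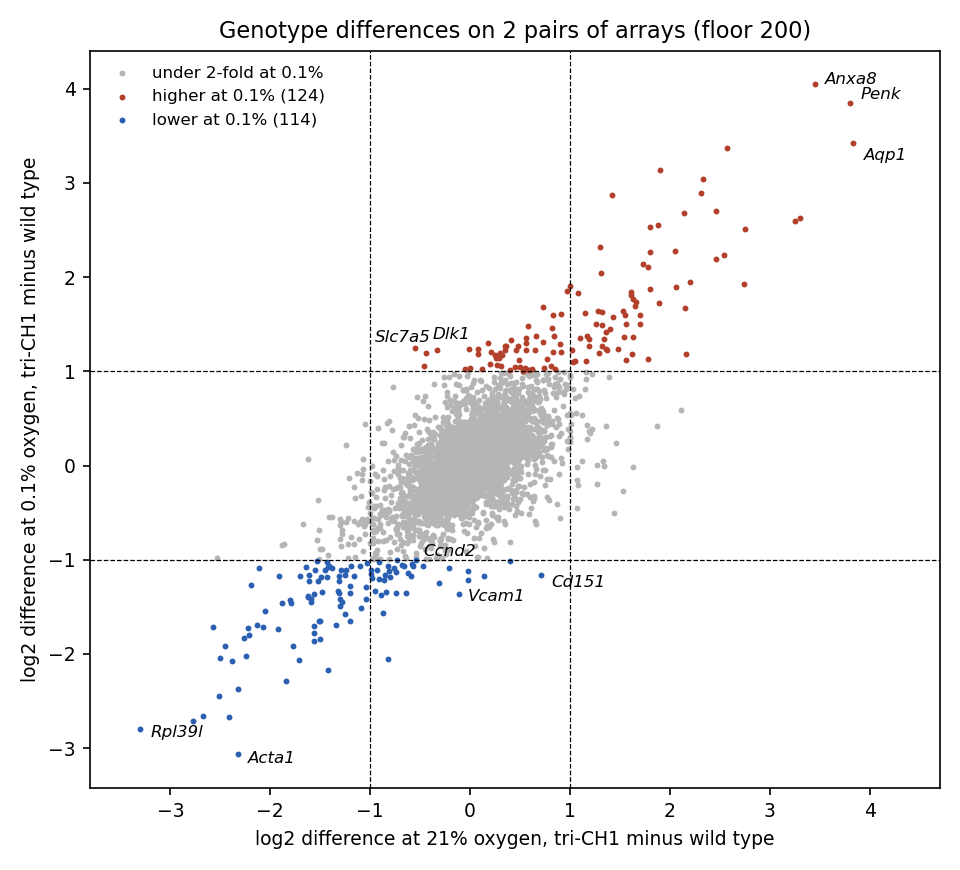
Log2 genotype difference (tri-CH1 minus wild type, floor of 200) at 21% oxygen (horizontal) against 0.1% oxygen (vertical) for the 3789 genes counted at both, with dashed lines at 2-fold; red genes are higher and blue genes lower at 0.1% oxygen. Of the coloured genes, 117 of 124 red and 111 of 114 blue lie on the same side of 0 at both oxygen levels. By the probe set used, Slc7a5 and Cd151 are among those that do not. Other bright Cd151 probe sets were lower in tri-CH1 at both oxygen levels.

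Some differences were present in hypoxia with little at 21% oxygen. Dlk1 stood at 596 in wild-type cells and 629.8 in tri-CH1 cells at 21%, a log2 difference of 0.08, against 1.24 at 0.1%. Ccnd2 stood at 7593 and 6541 at 21%, a log2 difference of -0.22 against -1.09. Insig2 had -0.31 against -1.24, Mfap5 0.29 against 1.14, Dag1 0.21 against 1.20, Cd248 0.25 against 1.17 and Ptprs 0.32 against 1.18. These genes were chosen for a small difference at 21% oxygen, so the contrast is a description. It also rests on 1 probe set per gene. At 21% oxygen, other probe sets stood at 343 and 763 for Dag1, 452 and 658.5 for Mfap5 and 596.5 and 349 for Insig2. Other Ccnd2 probe sets were lower in tri-CH1 there too, at 6244 and 4963, 6360 and 4493, 1927 and 1320, and 1513 and 871. Opposite signs were found for 7 of the higher genes, Exosc4, Grina, Slc7a5, Cnot3, Rps27, 2410002F23Rik and Nup155, and for 3 of the lower genes, Vcam1, Cd151 and Myo1h. Some of them were named after their values were seen, and each sign is that of the probe set used. Other Cd151 probe sets were lower in tri-CH1 at 21% oxygen too, at 1743 and 912, 978.5 and 432, and 770 and 542. Another was higher, at 370.5 and 438. Slc7a5 stood at 1163 and 925 at 21%, a log2 difference of -0.33, and Vcam1 at 633.5 and 697.5, or 0.14. Pgf was under 200 on both arrays at 21%, at 21.1 and 7.2, and Slc2a3 stood at 137 and 241, so neither reached 500 there.

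The probe sets of a gene gave a partial check of the calls. Of the 289 genes past 2-fold, 84 had at least 1 further probe set that reached 500 in hypoxia, 134 probe sets in all. Of these, 132 had the same sign and 86 were past 2-fold in the same direction. The exceptions in sign were those of Cd151 and Cd82 given above. Probe sets of a gene share the RNA and the array, so they do not stand for replicates.

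Some calls depended on the choice of scaling or probe set. Not all of them were near 2-fold: Tgm2, Cryab and Angptl4 were at least 4.37-fold, 4.14-fold and 3.87-fold lower on the probe set used. Scaled to the same median, Col1a1, Lamc1, Ddr2, Tgfbr2, Rps27, Mcm6, Thbd and Atp5g1 were no longer 2-fold higher. With quantile or cyclic loess normalization, Tfrc, Ddr2, Ncam1, Mcm6, Plk2 and Pdlim1 were under 2-fold, and Lamc1 with the former. Averaged over all probe sets, the genes under 2-fold included Tgm2, Angptl4, Srf, Ets1, Bmp1, Igfbp7, Lasp1, Ccng1 and Cd82, and numbered 33 of the named genes in all. With probe sets that reached 500 averaged, 13 did, including Pfkfb3, Col1a1, Mfap5 and Dag1. Where the brightest probe set in hypoxia was used, Cxcl14 and Cd151 were under 2-fold. With probe sets whose suffix marks shared or cross-matching probes left out, Cryab, Angptl4, Slc2a3, Srf, Emilin1, Ncam1, Cd151, Ccng1 and Ltbp3 were under 2-fold.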

How the data were processed

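The values used are the deposited intensity of each probe set, on a linear scale. Per the labels, the authors computed them with the Affymetrix statistical algorithm and multiplied each array by 1 factor to a target signal of 500; the factors were 6.730389 for wild type and 8.697724 for tri-CH1 in hypoxia. The software name was not given in the sources used here. Gene names come from the annotation GEO holds for the platform. Of 22690 probe sets, 20380 had 1 symbol, 691 several and 1555 none, and 64 were controls. Of the named ones, 681 on the X or Y chromosome and 33 without a chromosome were left out. A gene took its probe set of highest mean signal; the floor was 200, the minimum 500 and the call 2-fold, with no test. Members and lists were chosen with earlier results of these data known, and 8 of the 54 lists after values were seen. Genes were named if among the 20 largest differences either way, if list members past 2-fold, by brightness if under it, by symbol shared by 3 genes past 2-fold, or as the 10 past 2-fold with the smallest difference at 21% oxygen among those at 500 or more on all 4 arrays. Promoters are from RefSeq (GRCm38.p6). The call rule was run on simulated data with changes well past 2-fold in bright genes and noise under the spread between probe sets. That run checked the code and does not bear on calls near 2-fold or near the floor. Tools were Python 3.11.15, numpy 2.4.6, pandas 2.3.3, matplotlib 3.10.9, and limma 3.58.1 in R 4.3.3 for quantile and cyclic loess normalization. Other alternatives changed the floor, the minimum, the scaling and the choice of probe set.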

Additional observations from a re-analysis of the deposited data

How the results depend on the processing

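With 1 array per group no array could be left out, and differences between embryos, cultures and arrays cannot be told apart. No paired analysis was possible because each group has 1 array and the labels carry no replicate numbers. Raising the floor to 400 left 98 higher genes and 97 lower ones, all among the original calls, and a minimum signal of 1000 left 77 higher and 81 lower. These settings measure fewer or dimmed genes by construction. Under the other alternatives run, counts of higher genes ranged from 123 to 200 and of lower genes from 98 to 166. The mean over probe sets that reached 500 was chosen after seeing the data and gave 157 and 126. Scaling each array to the same median moved the median of all counted genes from 0.05 to -0.037 and gave 132 higher and 166 lower. When probe sets with a suffix for shared or cross-matching probes were left out, 2 genes past 2-fold changed sign, Grina and Srf, and Srf had a log2 difference of 0.21. Dim genes are the least certain, and the scaled background differed between the arrays, at 245.9 and 393.5.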

Other observations

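Several genes outside the lists, chosen after their values were seen, add to the description of the hypoxic arrays. Gja1, the gap junction protein connexin 43, stood at 2812 in wild type and 8987 in tri-CH1, 3.20-fold higher, and at 2115 and 9404 at 21% oxygen. Lgals3, galectin-3, a secreted lectin, stood at 4611 and 10120.1, 2.19-fold higher. Lmna, which encodes the nuclear lamins A and C, stood at 2014 and 5109, 2.54-fold higher. Plpp1, a phosphatase of lysophosphatidic acid and related lipids, stood at 1036 and 4279, 4.13-fold higher, and Il1rn, the interleukin-1 receptor antagonist, at 49.4 and 758, at least 3.79-fold higher. Il6st, the shared receptor chain gp130, stood at 648 and 1822, 2.81-fold higher. Il1rn was under 2-fold with a floor of 400.

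Signalling ligands and receptors were also found among the lower genes. Jag1, a Notch ligand, stood at 1072 and 446, 2.40-fold lower, and Slit3, a guidance ligand, at 652.5 and 289.9, 2.25-fold lower. Gfra1, the co-receptor of GDNF, stood at 661 and 173, at least 3.30-fold lower, and Nppb, the natriuretic peptide precursor that is a marker of stretched heart muscle, at 748 and 215, 3.48-fold lower. Htra1, a secreted serine protease, stood at 4417 and 1514, 2.92-fold lower. Slit3, Gfra1 and Nppb were under 2-fold with that floor. At 21% oxygen the log2 differences of these 5 genes were -2.19, -1.70, -2.22, -2.21 and -2.05, all in the same direction.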
